A study of Mus musculus with 7 samples.

Results

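The genes examined were the nuclear receptor gene Pparg and 6 genes that act in the uptake and storage of fatty acids: Cd36, Vldlr, Lpl, Fabp2, Fabp4 and Mogat1. They were chosen by name from 32451 genes on the array, through the RefSeq accession that each probe carries, and 9 probes matched them. This choice was made with earlier results of these data known. Liver RNA of male C57/BJ mice was measured on 1-colour Agilent arrays, 1 array per sample. The HFD group (n = 3) received the high-fat diet D12331 of ResearchDiets from 6 weeks of age, and the chow group (n = 4) received a control chow of Provimi Kliba, each for 20 weeks, so that all mice were 26 weeks old. The labels do not say whether each sample came from an animal of its own, so p-values measure only the spread between these samples.

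PPAR gamma, the product of Pparg, is a nuclear receptor that binds DNA as a partner of the retinoid X receptor and switches on genes of fat storage. It is best known from adipocytes, is normally low in liver, and is known to increase in fatty mouse liver. Fatty acids reach a hepatocyte either free, with the membrane protein CD36 as a known translocase, or inside lipoproteins, which lipoprotein lipase hydrolyses and the VLDL receptor binds. Inside the cell, fatty acid binding proteins carry them, and acyltransferases such as MOGAT1 place them on glycerol.

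The values came from a pair of sources, which differed for chow. Scanner files existed for all 7 arrays, and a table deposited by the authors gave processed log2 values for 1615 probes. HFD scanner files followed their own columns of the table across these probes (Pearson r of 0.999915 to 0.99994, across probes), whereas files labelled chow did not (r of 0.580 to 0.589). In the files labelled chow 5 of 9 hepatocyte markers, Alb and Apoa1 among them, did not stand clear of background on any array, while all 9 did on every HFD array. In a limma fit of the scanner files, labelled HFD against labelled chow, 80.1% of 20921 genes were called, and of the 5 genes compared here 4 were higher and Vldlr was lower. The diet comparison was therefore made in the table, and levels in the scanner files are given for HFD alone. The table holds only probes whose groups did not overlap (1615 of 1615), so the separation of the groups and the small p-values below were fixed by its selection and are not independent evidence. No spot was saturated. HFD replicate 1 had a negative control signal out of range (46.9, against 29.9 to 31.4 on the other arrays). The 3 HFD arrays shared a scan day, and the files labelled chow came from another. The scan day behind the chow columns is not known, so scan day and diet cannot be told apart.

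The gap between the sources is plain in the genes themselves. Fabp2 had log2 values of 16.35, 16.21 and 16.33 in the HFD columns, and the log2 processed signals of the same scanner files were 16.30, 16.04 and 16.31. In chow its columns held 14.37, 14.76, 14.51 and 14.12, but the files labelled chow gave 5.64, 5.30, 5.40 and 5.38. Vldlr went the other way, with 5.56, 5.98, 5.82 and 5.99 in the chow columns and 13.67, 13.81, 13.59 and 14.13 in the files labelled chow.

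**Figure D1:**
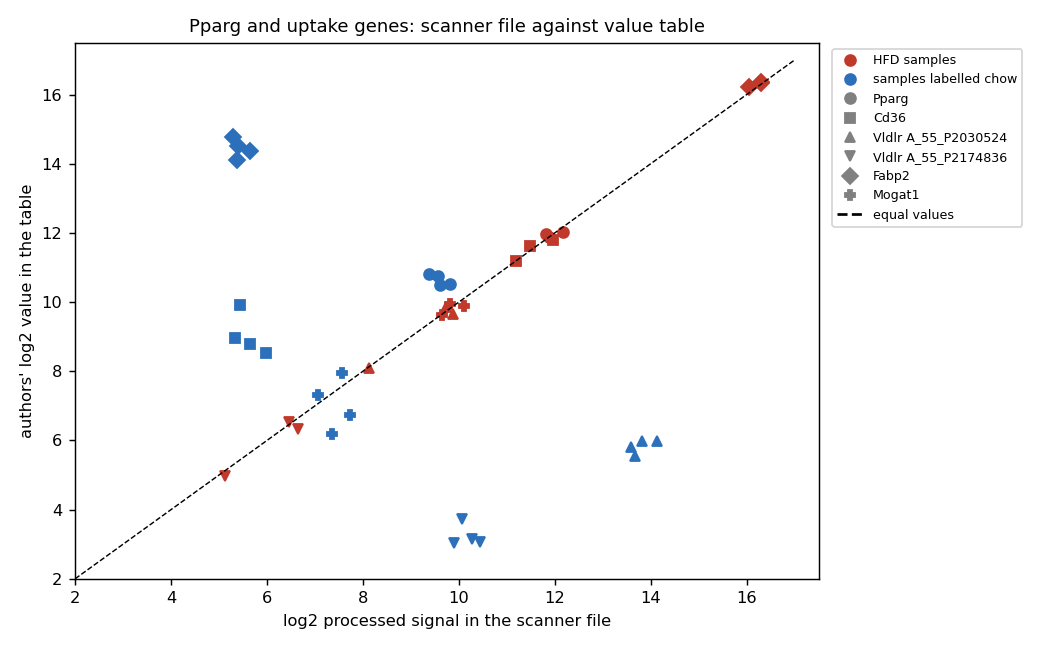
Log2 processed signal in each scanner file (horizontal axis) against the authors' log2 value of the same sample (vertical axis) for the 6 probes in the value table, with HFD samples in red, samples labelled chow in blue, and 1 marker shape per probe. HFD points lie along the dashed line of equal values; points labelled chow lie far from it for Fabp2, Cd36 and both Vldlr probes.

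Of the 7 genes, 5 were listed in the value table, all higher in HFD: Vldlr by 10.3-fold, Mogat1 by 6.84-fold, Cd36 by 5.60-fold, Fabp2 by 3.62-fold and Pparg by 2.47-fold. Each passed at an adjusted p under 0.05 in limma, with the Benjamini-Hochberg method applied across the array's 32451 genes. Of the genes on the array, 2.47% were listed as higher in HFD and 1.04% passed as higher. As the genes were chosen with earlier results known, these shares are background and not a test of them. Of the 1488 genes in the table, 22.7% passed as higher and 18.4% were at least 2-fold higher. The median log2 difference was 2.49 over the 5 listed genes, all higher in HFD. It was 0.82 over the 801 table genes higher in HFD, and 0.44 over all genes in the table, higher and lower. Lpl and Fabp4 were not in the table, and nothing can be said here of their response to diet. As these are bulk livers, a change in the number of cells of a type and a change in RNA per cell cannot be told apart.

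**Figure D2:**
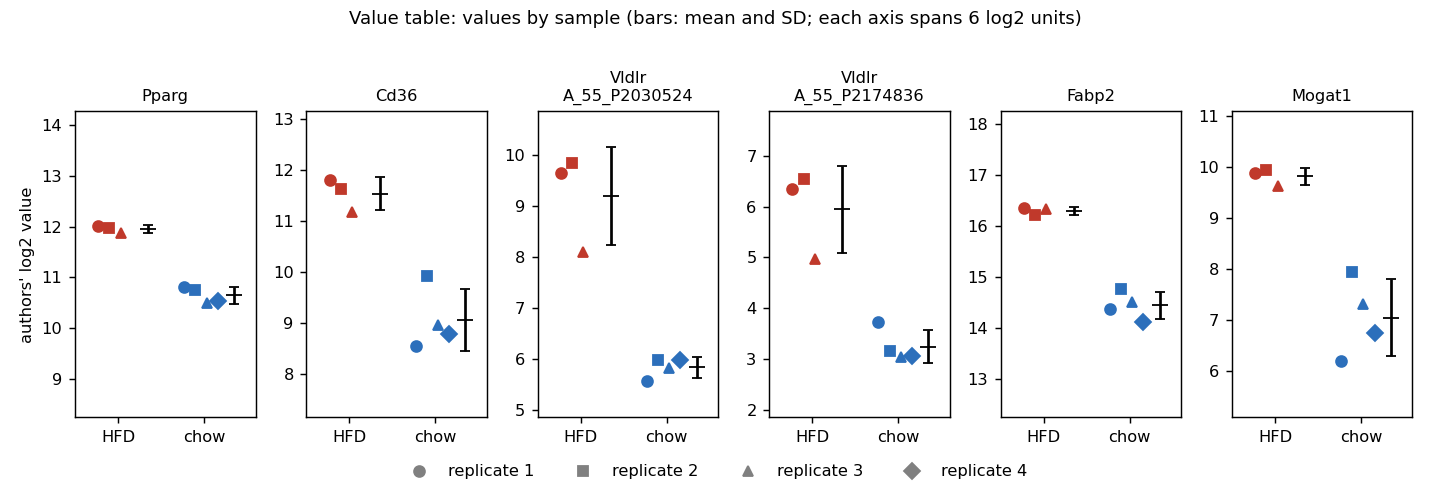
Authors' log2 values (vertical axes, each spanning 6 log2 units) of the 6 probes in the value table for HFD (red, n = 3) and chow (blue, n = 4) samples, with marker shapes for replicates and bars for mean and SD. All HFD points lie above all chow points, as they do for every probe in this table; HFD replicate 3 is the low HFD point of both Vldlr probes and chow replicate 2 the high chow point of Cd36 and Mogat1.

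Pparg (probe A_51_P106799) had log2 values of 12.02, 11.97 and 11.87 in HFD livers, against 10.82, 10.76, 10.49 and 10.53 in chow livers. All HFD values lay above all chow values, and the lowest HFD value was 1.05 above the highest chow value. The means were 11.95 ± 0.08 (SD, n = 3) in HFD and 10.65 ± 0.16 (SD, n = 4) in chow, a log2 difference of 1.30 with an SE of 0.12 (limma, adjusted p = 0.0182). It had the smallest fold of the 5 listed genes, and it ranked 182nd of 1488 genes in the table by log2 difference. Pparg is the only one of the 7 genes printed as 10 spots on each array, and the SD over its spots was 0.03 to 0.05 on the log2 scale in the HFD files. The HFD arrays differed little for this gene, with a range of 0.09 in scanner level, and 92.6% of 17612 genes detected on all 3 HFD arrays had a range at least as large.

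Cd36, the fatty acid translocase (probe A_51_P375146), had log2 values of 11.79, 11.63 and 11.18 in HFD livers, against 8.54, 9.92, 8.96 and 8.77 in chow livers. Chow replicate 2 stood above the other chow samples, and chow values were spread over 1.39 log2 units, against 0.61 in HFD. The means were 11.53 ± 0.32 (SD, n = 3) in HFD and 9.05 ± 0.61 (SD, n = 4) in chow, with a log2 difference of 2.49 and an SE of 0.34 (limma, adjusted p = 0.0294).

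Vldlr encodes the VLDL receptor, which binds triglyceride-rich lipoproteins that carry apolipoprotein E. Its brighter probe (A_55_P2030524) had log2 values of 9.64, 9.85 and 8.09 in HFD livers, against 5.56, 5.98, 5.82 and 5.99 in chow livers. HFD replicate 3 was far below the other HFD samples and still 2.10 above the highest chow value. The log2 means were 9.19 ± 0.96 (SD, n = 3) in HFD and 5.83 ± 0.20 (SD, n = 4) in chow, and the log2 difference of 3.36 (SE 0.41, limma, adjusted p = 0.0257) ranked 16th of the 1488 genes. The fold was 15.0 without HFD replicate 3 and 8.18 without HFD replicate 2. A second probe (A_55_P2174836) had log2 values of 6.34, 6.53 and 4.96 in HFD livers, against 3.73, 3.16, 3.04 and 3.07 in chow livers. HFD replicate 3 was again the low sample. All 4 chow values of this probe lay below the highest detection floor of the HFD arrays. That floor was 4.77, from HFD replicate 1, the lowest value of a probe well above background there. The difference of this probe is therefore given as a bound of at least 2.26-fold higher in HFD. Its measured means were 5.95 in HFD and 3.25 in chow. No floor is known for the arrays behind the chow columns, and the bound holds only if theirs was no higher than 4.77.

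Fabp2 encodes the fatty acid binding protein best known from the intestine. Its probe (A_51_P313581) had the values given above, with means of 16.30 ± 0.08 (SD, n = 3) in HFD and 14.44 ± 0.27 (SD, n = 4) in chow. The log2 difference was 1.86 with an SE of 0.16 (limma, adjusted p = 0.0182). HFD values were spread over only 0.14 log2 units, against 0.64 in chow. Its level on the HFD arrays was 6.38, 6.48 and 6.60 log2 units above the 75th percentile of each array. Of 7 measured enterocyte markers 1 (Apoa4) was well above background on every HFD array. Vil1 and Sis were above it on 1 array each, and Cdx1, Cdx2, Lct and Cdh17 on none. The part of intestinal RNA in the values of Fabp2 was not tested.

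Mogat1 encodes a monoacylglycerol acyltransferase, which makes diacylglycerol. Its probe (A_55_P2037428) had log2 values of 9.88, 9.94 and 9.63 in HFD livers, against 6.19, 7.94, 7.31 and 6.74 in chow livers. As for Cd36, chow replicate 2 was the highest and chow replicate 1 the lowest chow sample. Chow replicate 2 was the highest chow sample for 26.1% of table genes, Fabp2 among them. The whole chow order of Cd36 and Mogat1 was found in 4.84% of table genes. Mogat1 was spread over 1.74 log2 units in chow, against 0.32 in HFD. The means were 9.82 ± 0.17 (SD, n = 3) in HFD and 7.04 ± 0.75 (SD, n = 4) in chow, with a log2 difference of 2.77 and an SE of 0.39 (limma, adjusted p = 0.0298).

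The calls rest on all 7 samples. With 1 sample left out, no fold of the 5 genes moved by over 1.5 times. Their log2 differences stayed positive, which was fixed in advance because the groups of every table probe did not overlap. However, none of the 5 passed without chow replicate 1, 3 or 4 or without HFD replicate 1 or 2 (limma, adjusted p of 0.0564 to 0.131). Without chow replicate 2 all but Vldlr passed (adjusted p = 0.0599), and without HFD replicate 3 all but Mogat1 passed (adjusted p = 0.0533). Columns of HFD had higher medians than columns of chow, and centring each column on its median lowered the median difference of all table genes by 0.21. Relative to that shift the 5 genes were still higher, with log2 differences of 1.09 to 3.15 that passed. The same centring moved the calls over the whole table to 185 higher and 605 lower, against 338 higher and 266 lower as deposited. With 1 sample left out, 0 to 243 genes passed as higher and 0 to 207 as lower.

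The table genes most like Pparg and Cd36 were sought by the root mean square difference between 7-sample profiles, each centred on its own mean, over the 1166 named genes of the table. Closest to Pparg were 1810062O18Rik (0.11 log2 units), Ugp2 (0.15), which makes UDP-glucose, and the matrix protein gene Fbln2 (0.16). Closest to Cd36 were Sulf2 (0.15), an extracellular sulfatase, the water channel gene Aqp4 (0.25), and Mogat1 (0.25) as the third. Fabp2 was 19th (0.45), Vldlr 81st (0.65) and Pparg 116th (0.72) in likeness to Cd36. In likeness to Pparg, Fabp2 was 191st (0.33), Cd36 591st (0.72), Mogat1 661st (0.89) and Vldlr 942nd (1.14). Every table gene was selected for a step between the groups, so this measure depends largely on how alike the log2 differences are. The genes nearest to Pparg (1.30) had log2 differences of 1.13 to 1.18. Fabp2, Cd36, Mogat1 and Vldlr stand here in the order of their log2 differences. Sulf2 had log2 values of 10.58, 10.72 and 10.44 in HFD livers, against 7.80, 9.03, 8.17 and 7.96 in chow livers.

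PPAR gamma with its partner is known to bind direct repeats of a half-site, so the stretch of 250 bases upstream of each annotated start was searched. The motif was AGGTCANAGGTCA, which holds the half-site AGGTCA on both sides of 1 free base, on both strands. RefSeq (build GRCm38.p6) gave 8 such windows for 5 of the genes (all but Lpl and Fabp4), 3 of them for Pparg and 2 for Vldlr. The fewest mismatches were 2 in the window of Mogat1 and 2 in that of Cd36, against 3 for Fabp2, 4 in each Pparg window, and 4 and 5 for Vldlr. Of 32851 windows of all genes, 3.24% held a match with at most 2 mismatches. The exact half-site was in 3 of the 8 windows, those of Cd36 and of 2 Pparg starts, and in 14% of all windows. Both windows with the closest matches are shown 5′ to 3′ along the gene, with the 13 bases of the match in capitals. That of Cd36 lies at chr5:17835897-17836146 on the minus strand and that of Mogat1 at chr1:78510810-78511059 on the plus strand.
Cd36: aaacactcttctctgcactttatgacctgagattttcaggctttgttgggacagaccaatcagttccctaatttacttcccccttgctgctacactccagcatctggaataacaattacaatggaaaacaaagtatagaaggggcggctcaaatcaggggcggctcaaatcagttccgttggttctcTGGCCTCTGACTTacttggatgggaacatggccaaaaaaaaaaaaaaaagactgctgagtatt
Mogat1: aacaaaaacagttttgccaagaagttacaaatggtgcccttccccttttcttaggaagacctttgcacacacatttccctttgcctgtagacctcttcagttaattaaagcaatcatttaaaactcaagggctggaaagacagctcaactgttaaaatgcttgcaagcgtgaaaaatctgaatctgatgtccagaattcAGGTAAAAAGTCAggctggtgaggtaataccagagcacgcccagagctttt
The match in the Cd36 window is on the opposite strand to the gene, with its first printed base at position -63 from the start. The match in the Mogat1 window is on the gene's own strand, with its first base at -51. Read along the motif, with bases that match it in capitals, the Cd36 match is AaGTCAgAGGcCA, the Mogat1 match AGGTaAaAaGTCA and the Fabp2 match AGtTCAaAGtgCA. These are matches of letters, and binding was not measured.

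For Lpl and Fabp4, scanner levels of the HFD livers are given as log2 units relative to the 75th percentile of each array. Every one of the 9 probes of the 7 genes was well above background on all 3 HFD arrays. Lpl encodes lipoprotein lipase, which frees fatty acids from lipoprotein triglyceride and is normally low in adult hepatocytes. Its probe A_51_P259296 had levels of 1.22, -0.08 and -0.55 in HFD replicates 1, 2 and 3, and its probe A_52_P257812 had levels of -0.40, -1.71 and -1.88. Both probes set HFD replicate 1 apart from the other arrays. The first probe spanned a 3.40-fold range, and 1.36% of 17612 detected genes had a range at least as large. Fabp4, the fatty acid binding protein of adipocytes and macrophages (probe A_51_P336833), was steadier, with levels of 2.24, 2.18 and 1.76 and a range of 1.39-fold.

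Vldlr had the other wide range among HFD arrays, with levels of -0.04, 0.16 and -1.59 for its brighter probe, and 1.39% of detected genes had a range at least as large. HFD replicate 3 was the lowest HFD array for 8 of the 9 probes, all but that of Fabp2, where 30.7% of detected genes had their lowest value. The 9 probes are not independent, since Vldlr and Lpl have a pair each.

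Macrophages also express Lpl, Fabp4 and Cd36, and macrophage markers also differed between the HFD arrays. Both Lpl probes set HFD replicate 1 apart. For Cd36 (2.04, 1.91 and 1.48 in HFD replicates 1, 2 and 3) and Fabp4 (2.24, 2.18 and 1.76) it was HFD replicate 3 that stood apart. All 12 measured macrophage markers were highest in HFD replicate 1, where 31.3% of detected genes were highest, and 7 of the 12 were lowest in HFD replicate 3. Their summed level, in multiples of the 75th percentile of each array, was 109.1, 53.9 and 54.9 in HFD replicates 1, 2 and 3. Of the 12, 3 were listed in the table and all passed as higher in HFD: Itgam, Ccr2 and Gpnmb. Of all genes in the table, 22.7% passed as higher. The rest of the 12 were not in the table, so nothing can be said here of their response to diet. The log2 of the sum of Itgam, Ccr2 and Gpnmb, most of it from Itgam, was 12.09 to 12.54 in HFD and 11.36 to 11.41 in chow. All 4 chow values of Gpnmb and 1 of Ccr2 lay below the highest HFD floor. The part of macrophage RNA in the values of Lpl, Fabp4, Cd36 and Vldlr was not tested. Hepatocyte markers, 9 measured, summed to 2510, 3639 and 3510 in HFD replicates 1, 2 and 3, and each was lowest in HFD replicate 1. Among all table genes 17.9% passed as lower. Of the 9 hepatocyte markers, 2 were in the table: Serpina1a, which passed as lower, and Cps1, which did not pass. The log2 of the sum of both, most of it from Serpina1a, was 17.93 to 18.10 in HFD and 18.46 to 18.59 in chow. Endothelial markers, all 9 of which were well above background on every HFD array, summed to 32.4, 36.9 and 31.1, and none was in the table. Of 8 adipocyte markers 4 (Cfd, Slc2a4, Adrb3 and Car3) were well above background on all 3 HFD arrays, Retn on 2 and Plin1 on 1, while Adipoq and Lep were on none. The summed level of the 8 was 200.6, 246.1 and 239.3, most of it from Car3, and none was in the table. The adipocyte markers did not share 1 order over the HFD arrays. Cfd, Slc2a4, Adrb3, Car3 and Retn were lowest in HFD replicate 1. Plin1, an adipocyte droplet coat gene, had log2 levels of -4.52, -5.96 and -5.98 and was highest there, as were Adipoq and Lep, which were not detected. The part of adipocyte RNA in the values of Lpl was not tested. Of 8 muscle markers 6 were not well above background on any HFD array.

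**Figure D3:**
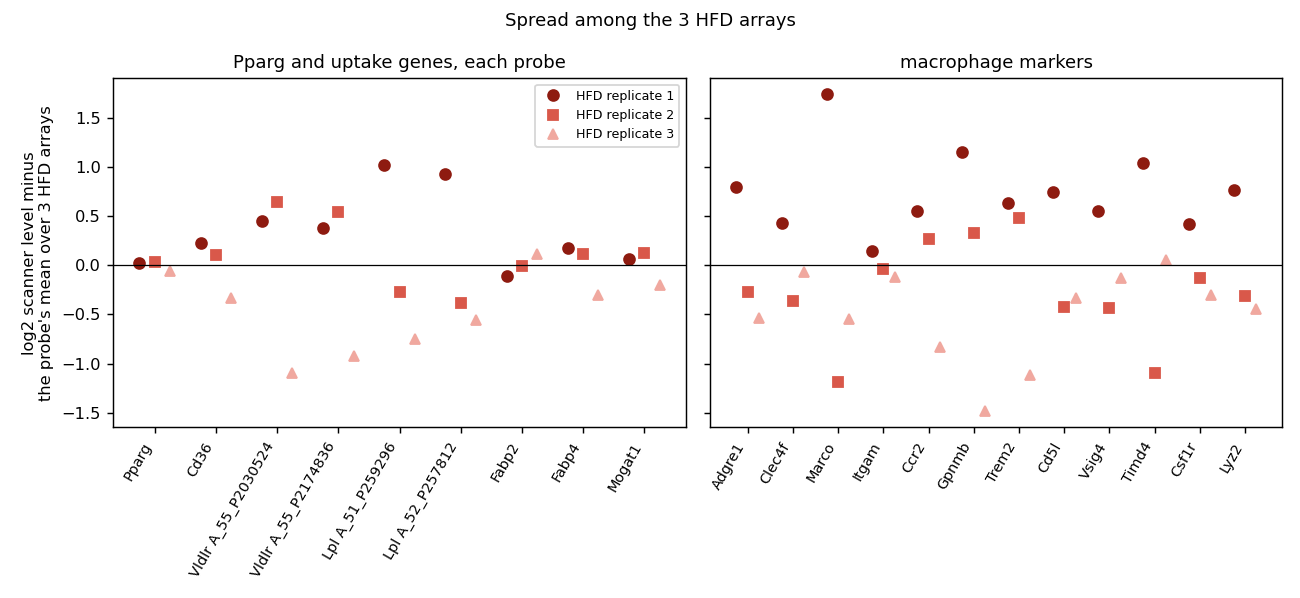
Log2 scanner level minus the probe's mean over the 3 HFD arrays (vertical axes) for the 9 probes of the 7 genes (left) and 12 macrophage markers (right), with 1 marker shape per HFD replicate. HFD replicate 1 is high for both Lpl probes and is highest for all 12 macrophage markers; HFD replicate 3 is low for both Vldlr probes.

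Other genes of the pathway were read from 5 lists, and most were not in the table. The table held 1488 of the array's 32451 genes, and 1.04% of the array's genes passed as higher. Of all genes in the table, 22.7% passed as higher and 17.9% as lower, and the counts below are to be read beside these shares. The lists, too, were chosen with earlier results of these data known. Among 22 receptors and partners of the PPAR family, all well above background on every HFD array, 3 were in the table. Besides Pparg, Srebf1, a transcription factor of lipogenesis, passed as higher (3.22-fold). Med1, a coactivator subunit, did not pass, at a log2 difference of -0.70 (limma, adjusted p = 0.0665). Neither Ppara, Ppard nor any retinoid X receptor gene was in the table. The median log2 difference of the 3, 1.30 beside 0.44 for all table genes, is the value of Pparg itself, and the other genes lay on opposite sides of 0.

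Of 23 measured targets of PPAR gamma in fat storage, 3 were in the table and all 3 passed as higher, with a median log2 difference of 3.45. The lipid droplet proteins Cidea and Cidec were 60.7-fold and 10.9-fold higher and the droplet coat gene Plin4 was 7.31-fold higher. Cidea was 36.6-fold higher without chow replicate 4, whose value of 7.11 was the lowest of its group.

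Among lipoprotein hydrolysis and receptor genes, 2 of 18 measured were in the table and both were lower in HFD, with a median log2 difference of -0.70. Sdc1, a heparan sulfate proteoglycan that takes up lipoprotein remnants, had log2 means of 11.93 ± 0.14 (SD, n = 3) in HFD and 12.77 ± 0.19 (SD, n = 4) in chow and passed as lower (log2 difference -0.84, SE 0.14, adjusted p = 0.0389 in limma). Lsr, the lipolysis-stimulated lipoprotein receptor, did not pass, at a log2 difference of -0.57 (limma, adjusted p = 0.0667). Vldlr was thus listed as higher and both of these as lower.

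Of 22 measured genes of fatty acid transport, binding and activation, 2 were in the table, with a median log2 difference of -1.06. Fabp12, a further fatty acid binding protein, had log2 values of 5.20, 4.67 and 5.26 in HFD livers, against 7.52, 6.51, 8.57 and 8.39 in chow livers. It passed as lower (6.52-fold, adjusted p = 0.0492 in limma) and was well above background on 2 of 3 HFD arrays. Acsl5, an acyl-CoA synthetase, did not pass, at a log2 difference of 0.59 (limma, adjusted p = 0.0608). None of the fatty acid transport proteins Slc27a2 to Slc27a6 and no Fabp gene other than Fabp2 and Fabp12 was listed. Of 19 triglyceride and phospholipid building genes, 3 were in the table, all higher, with a median log2 difference of 0.73. Pnpla3 passed (a fitted 4.09-fold, with 3 of 4 chow values below the highest HFD floor), and Gpat2 and Agpat3 had log2 differences of 0.73 and 0.38 that did not (adjusted p = 0.0789 and 0.0845 in limma). Dgat1, Dgat2 and Mogat2, which act beside or after Mogat1, were not listed.

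**Figure D4:**
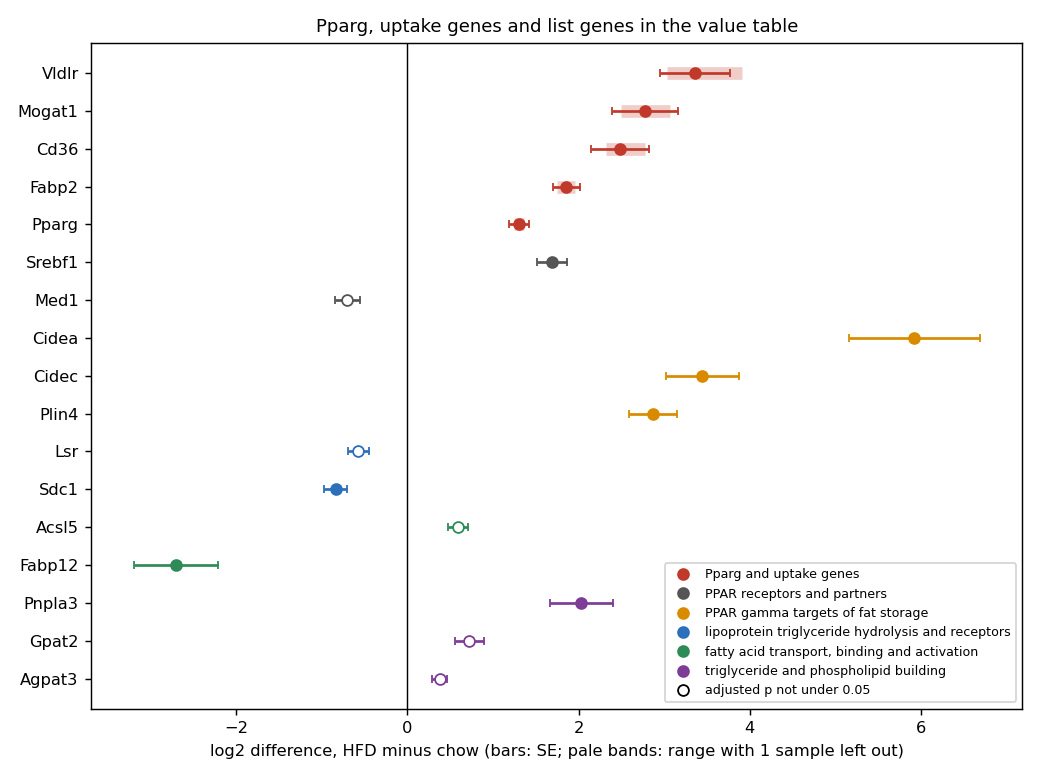
Log2 difference, HFD minus chow (horizontal axis, with SE bars), of the 5 listed genes and of the list genes in the value table, coloured by list, with open circles where the adjusted p was not under 0.05. Pale bands give the range of the 5 genes with 1 sample left out; all 5 lie right of 0, as do the 3 listed PPAR gamma targets, while Sdc1, Lsr, Fabp12 and Med1 lie left.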

How the data were processed

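Cy3-labelled cRNA from 0.5 microgram of liver RNA was hybridised to Agilent mouse arrays, per the labels' protocols. The authors deposited 1 scanner file per array, with spot intensity values (processed signal, background-subtracted, per the file headers), and a table of log2 values whose normalization is not given in the sources used here. The Feature Extraction version was 10.7.3.1 per the file headers but 9.1 per the submitters' processing notes. No control spot entered, and spots of a probe were averaged. Outlier spots were left out unless a probe would have had no spot left.

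In the table the brightest probe per gene was tested with a limma (3.58.1, R 4.3.3) linear model, HFD minus chow. The prior variance (0.0353, 2.09 degrees of freedom) was fitted on 19498 genes that stood clear of background on 2 or more HFD arrays. In the Benjamini-Hochberg adjustment a p of 1 stood for every gene not in the table. The procedure was tested on simulated data whose genes were not selected on the diet comparison. The rows of the table were so selected, so that test lends no support to the calls made there. Replicate numbers did not pair the samples (correlations of deviations of -0.10, 0.14 and 0.03 for numbers 1 to 3). Named genes were the 7 genes, up to 6 passing and 3 not passing genes per list, and the 3 nearest to Pparg and to Cd36. From the list of PPAR gamma targets 1 gene is not reported here, and its counts and median leave it out. The genes and lists were chosen with earlier results of these data known. Names come from RefSeq accessions (assembly GRCm38.p6). The file headers name the older build mm9, so no gene coordinates are given other than those of the promoter table. Alternatives covered left-out samples, scaling, floor, probe rule, prior, adjustment, block and the scanner files.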

Additional observations from a re-analysis of the deposited data

Results flagged for a closer look

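Lpl and Fabp4 gave signal in the HFD scanner files but have no place in the diet comparison, because neither is in the value table. Relative to the 75th percentile of each array, the mean log2 level over the 3 HFD arrays was 0.19 ± 0.92 (SD, n = 3) and -1.33 ± 0.81 (SD, n = 3) for the Lpl probes and 2.06 ± 0.26 (SD, n = 3) for Fabp4. Of 18 chow groups tested for a sample far from the others, none passed Dixon's critical value. The nearest were chow replicate 3 for Cidec (gap over range 0.828) and chow replicate 1 for the dimmer Vldlr probe (0.827).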

How the results depend on the processing

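The 5 listed genes kept their direction and passed under median centring, quantile normalization, the mean of probes and the table's own prior. They also passed with low chow values raised to the floor, which left the values of their tested probes unchanged. With adjustment over the table alone they passed too, but so did every table gene, 801 higher and 687 lower. That setting could not have failed them. With 1 sample left out the log2 differences ran from 1.25 to 1.36 for Pparg, 2.32 to 2.78 for Cd36, 3.03 to 3.91 for Vldlr, 1.75 to 1.96 for Fabp2 and 2.49 to 3.07 for Mogat1, with 0 to 4 of the 5 passing, and calls over the table ran from 0 to 243 higher and 0 to 207 lower. These fits have fewer samples. In each of them, and with the block below, limma gave an unadjusted p under 0.05 for all 801 higher and 687 lower table genes. With the replicate number as a block, which did not pair the samples and leaves chow replicate 4 in a block of its own, so that it adds nothing to the difference, 0 of the 5 passed (limma, adjusted p = 0.222; log2 differences of 1.26, 2.39, 3.41, 1.75 and 2.67 for Pparg, Cd36, Vldlr, Fabp2 and Mogat1) and 0 genes were called in either direction. The calls over the table were 185 higher and 605 lower with centred columns, 284 and 520 with quantile normalization, 552 and 474 with the table's own prior, and 801 and 687 adjusted over the table alone. In the scanner files, labelled HFD against labelled chow, Vldlr was reversed (log2 difference -3.52, limma adjusted p = 0.000154) and the other 4 were higher. There 80.1% of 20921 genes were called in 1 direction or the other (8435 higher and 8323 lower; 15783 and 8181 with no filter on dim probes; 6960 and 9941 with quantile normalization). The cause of these changes was not tested. Precision is limited by 7 arrays and, for the dimmer Vldlr probe, by chow values below the floor.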

Other observations

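Apoa4, an apolipoprotein of intestine and liver that was measured as an enterocyte marker, had log2 values of 17.11, 15.39 and 15.79 in HFD livers, against 14.34, 14.09, 13.96 and 13.85 in chow livers. Its log2 difference of 2.04 (SE 0.39) did not pass (adjusted p = 0.0533 in limma). HFD replicate 1 was its highest HFD sample, as it was for both Lpl probes.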
